A study of Mus musculus with 9 samples.

Results

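The 10 genes described here encode enzymes, an activating protein and receptors of the prostaglandin and leukotriene pathway: *Pla2g4a*, *Ptgs1*, *Ptgs2*, *Ptges*, *Ptges2*, *Ptges3*, *Ptger2*, *Ptger4*, *Alox5* and *Alox5ap*. They were chosen by name as members of the pathway and found by matching gene symbols of GENCODE M21 to the identifiers of the deposited table. They are 10 of the 54059 genes in that table. All but *Alox5*, that is 9 of the 10, are among the 11450 genes with a mean of at least 1 FPKM over the 9 libraries, which were tested. FPKM is the number of fragments counted for a gene, scaled to its length and to the depth of the library, so levels of different genes can be compared.

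Cytosolic phospholipase A2 frees arachidonic acid from membranes, cyclooxygenases convert it to prostaglandin H2, and terminal synthases turn that into prostaglandin E2 and other prostanoids. A separate branch, started by 5-lipoxygenase with its activating protein, leads to leukotrienes. Macrophages activated through Toll-like receptors are a known source of prostaglandin E2, made through the inducible cyclooxygenase COX-2 and the inducible synthase mPGES-1, and they sense it through the receptors EP2 and EP4.

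RNA was sequenced in bulk from peritoneal macrophages in 3 groups of 3 libraries, to ask how loss or inhibition of the phosphatase SHP2, the product of *Ptpn11*, changes the response to imiquimod (IMQ), a TLR7 agonist. Mice were labelled C57BL/6 and 8 weeks old, starch broth was injected into the peritoneal cavity 3 days before lavage, and the adherent cells were cultured overnight before stimulation. The WT group held macrophages of wild-type mice, given IMQ *in vitro* for 4 h. The KO group held macrophages of M-Shp2-/- mice (Shp2 fl/fl crossed with *Lyz2*-cre, on the same strain), given IMQ for 4 h in the same way. The SHP099 group held wild-type macrophages that were kept for 2 h with 10 µM SHP099, an allosteric SHP2 inhibitor, and then given IMQ for 4 h. *Lyz2*-cre acts in monocytes, macrophages and granulocytes, so the deletion is of the myeloid lineage and present before the culture, whereas SHP099 reached the cells for hours only. Every library received IMQ, so the level of these genes before stimulation was not measured. The labels do not say whether the replicates of a group came from separate animals or cultures. A p value therefore measures the spread within groups among the 6 libraries of its comparison. Depth, recovered from the FPKM and transcript lengths, was between 39841813 and 50979545 reads per library.

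*Ptpn11* served as a check of the labels. Its FPKM was 45.8, 44.0 and 40.0 in WT_1 to WT_3, 18.6, 17.8 and 18.9 in KO_1 to KO_3, and 43.0, 42.1 and 39.6 in SHP099_1 to SHP099_3. All KO libraries lay below all others, which fits their labels, and 42.5% of the WT level remained. The macrophage label was checked with 8 marker genes, all of which were tested. Their summed FPKM was 10420, 13421 and 11189 in WT, 7595, 7468 and 8412 in KO, and 11778, 13005 and 13736 in SHP099, with *Lyz2*, a lysozyme, as the most abundant. Of the 8, *Csf1r*, the receptor for the growth factor CSF1, passed in 1 comparison and was higher with SHP099 (log2 fold change 1.38, adjusted p = 0.0222 from limma). *Lyz2*, whose promoter drives the Cre transgene, had 58.6% of its WT level in KO (log2 fold change -0.76, adjusted p = 0.388 from limma).

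Some libraries stand apart from the rest of their group. Over all tested genes, log2 levels of KO_3 correlated with those of KO_1 and KO_2 at r = 0.967 and 0.954, whereas KO_1 and KO_2 correlated at 0.992. KO_3 was closer to SHP099_1, at 0.984, and WT_1 was closer to KO_1 and KO_2, at 0.986 and 0.988, than to WT_3, at 0.976. Markers of mesothelial cells and fibroblasts also differed between libraries: 7 of the 10 were tested, 0 passed in any comparison with limma (0 at an unadjusted p under 0.05), and *Col1a1*, a collagen gene, was the most abundant. Their summed FPKM was 66.8, 311 and 41.6 in WT_1 to WT_3, 140, 53.4 and 597 in KO_1 to KO_3, and 369, 143 and 104 in SHP099_1 to SHP099_3. WT_2, KO_3 and SHP099_1 are therefore the highest of their groups.

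In group means, *Ptgs2* and *Ptges*, the inducible genes of prostaglandin E2 synthesis, were the most abundant of the 10. Ordered by mean FPKM in WT, *Ptgs2* stood at 1693 ± 316 (SD, n = 3), *Ptges* at 526 ± 286, *Ptges3* at 73.0 ± 13.6, *Alox5ap* at 55.2 ± 8.20 and *Pla2g4a* at 52.6 ± 13.2. Below them came *Ptges2* at 9.74 ± 0.924, *Ptgs1* at 7.59 ± 6.76, *Ptger4* at 2.08 ± 0.313, *Ptger2* at 1.70 ± 1.05 and *Alox5* at 0.394 ± 0.0867 (SD, n = 3 each). Neighbours whose WT libraries overlapped were *Ptges3*, *Alox5ap* and *Pla2g4a*, then *Ptges2* and *Ptgs1*, and then *Ptger4* and *Ptger2*. *Ptgs2* ranked 36 among the 11450 tested genes in WT, 190 in KO and 297 with SHP099. *Ptges* ranked 188 in WT, 118 in KO and 35 with SHP099, so that *Ptgs2* led the members in WT and *Ptges* led with SHP099. The KO mean of *Ptges* rests on KO_3 (1709 FPKM, against 185 and 102): in KO_1 and KO_2 *Ptgs2* led, and on the log2 scale *Ptges* in KO was below WT (-0.52).

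**Figure D1:**
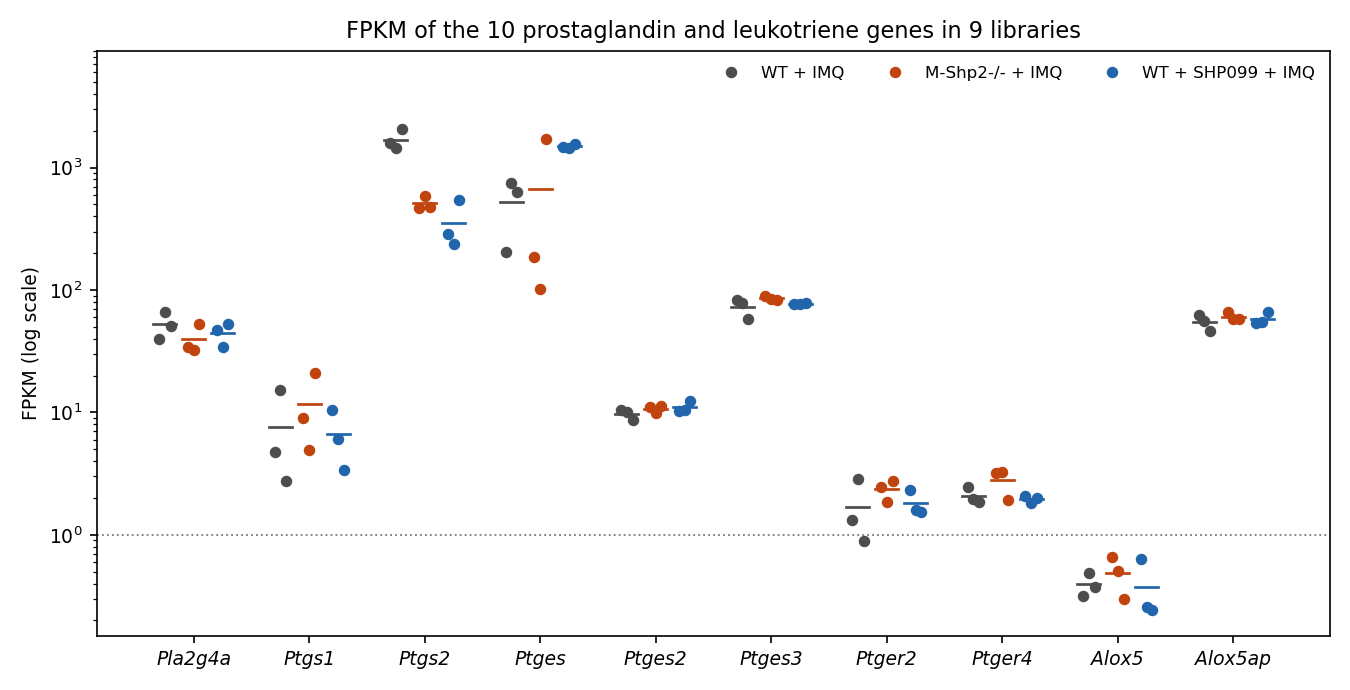
FPKM (log scale) of the 10 genes in each of the 9 libraries, with genes on the horizontal axis ordered by role, points for libraries, short bars for group means and a dotted line at 1 FPKM, the minimum mean for a test. *Ptgs2* lies between 1442 and 2047 FPKM in WT and between 237 and 582 FPKM in the other groups, and *Alox5* lies below the line in every library.

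*Pla2g4a* encodes cytosolic phospholipase A2, the enzyme that releases arachidonic acid for both branches. Its FPKM was 40.1, 66.4 and 51.2 in WT, 34.2, 32.6 and 53.0 in KO, and 47.0, 34.1 and 52.5 with SHP099. The groups overlapped, and the lowest WT library was below the highest library of either other group. By limma, KO differed from WT by -0.39 on the log2 scale (SE 0.24, adjusted p = 0.523), and SHP099 by -0.23 (SE 0.22, adjusted p = 0.554). With 1 library left out, the KO value lay between -0.61 (without KO_3) and -0.21 (without WT_2), and the SHP099 value between -0.40 (without WT_1) and -0.05 (without WT_2 or SHP099_2).

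*Ptgs2* encodes the inducible cyclooxygenase COX-2 and *Ptgs1* the constitutive COX-1. *Ptgs2* (ENSMUSG00000032487, at 150100031-150108227 of chromosome 1 in GRCm38) stood at an FPKM of 1589, 1442 and 2047 in WT_1 to WT_3, 469, 582 and 479 in KO_1 to KO_3, and 288, 237 and 541 in SHP099_1 to SHP099_3. Every KO and every SHP099 library was below every WT library, and the lowest value was in SHP099_2. The mean fell to 510 ± 62.7 in KO, 30.1% of the WT level, and to 355 ± 163 with SHP099, 21.0% of it (SD, n = 3 each). Between 22706 and 209441 reads stand behind each value, so counting error is small beside the spread between libraries. In bulk samples, fewer cells that express a gene and less RNA per cell cannot be told apart.

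The log2 fold change of *Ptgs2* by limma was -1.72 in KO (SE 0.16, adjusted p = 0.0299), where the median of all tested genes was 0.15. The call for KO ended when any library was left out: the adjusted p was 0.131 without WT_1, 0.112 without WT_2, 0.0824 without WT_3, 0.272 without KO_1, 0.125 without KO_2 and 0.0743 without KO_3. Over all 18 alternatives the log2 fold change stayed between -1.88 and -1.57 while the adjusted p ranged from 0.0230 to 0.272. With SHP099 limma gave -2.33 (SE 0.30, adjusted p = 0.0134), where the median of all tested genes was 0.13. That call ended without SHP099_1 (adjusted p = 0.0577) and without SHP099_2 (0.0590), and over 18 alternatives the log2 fold change was between -2.68 and -2.08 with an adjusted p from 0.00677 to 0.0759. Both comparisons use the same WT libraries. Between KO and SHP099 libraries directly, the values of *Ptgs2* overlapped, and limma gave 0.61 (SE 0.29, adjusted p = 0.440), with 0.36 without SHP099_2 and 0.96 without SHP099_3, neither of which passed.

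*Ptgs1* was far lower than *Ptgs2* in every library and followed other libraries. Its FPKM was 4.74, 15.3 and 2.73 in WT, 9.01, 4.90 and 21.0 in KO, and 10.4, 6.09 and 3.40 with SHP099. The highest library of each group was WT_2, KO_3 and SHP099_1, and the groups overlapped. Limma gave 0.63 in KO (SE 0.66, adjusted p = 0.648) and 0.01 with SHP099 (SE 0.57, adjusted p = 0.993), which turned to -0.11 with median-of-ratios scaling and to -0.13 with quantile normalization. The KO value was 0.13 without KO_3, 0.17 without WT_3, 1.08 without KO_2 and 1.24 without WT_2, so single libraries set its size. The SHP099 value ran from -0.45 without WT_3 to 0.62 without WT_2.

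Because *Ptgs1* was low, *Ptgs2* made up 95.8% to 99.9% of the summed FPKM of both cyclooxygenases in each library, a share computed after the values were seen. The log2 ratio of *Ptgs2* to *Ptgs1*, with 1 added to each FPKM, was 8.11, 6.47 and 9.10 in WT, 5.55, 6.63 and 4.44 in KO, and 4.66, 5.07 and 6.94 with SHP099. WT_2 lies within the range of the other groups, so the ratios overlapped. The mean ratio differed from WT by -2.35 in KO and by -2.34 with SHP099 (exact permutation test, two-sided p = 0.200 for each, where the smallest p that 3 against 3 libraries can give is 0.1). COX-2 transcripts thus stayed dominant in every library, also where their level was lowest.

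The sequences before the start sites of *Ptgs2*, *Ptgs1* and *Ptges* are shown because these genes of the same pathway moved differently: *Ptgs2* fell, *Ptgs1* followed the mesothelial and fibroblast markers, and *Ptges* had the largest spread in KO. They are the 250 bases before the RefSeq start, from RefSeq on build GRCm38.p6, at chr1:150099781-150100030 on the plus strand, chr2:36230176-36230425 on the plus strand and chr2:30903298-30903547 on the minus strand. For *Ptges* this start lies 26566 bases from the outermost GENCODE start. Capitals mark matches to the motifs named next.
Ptgs2: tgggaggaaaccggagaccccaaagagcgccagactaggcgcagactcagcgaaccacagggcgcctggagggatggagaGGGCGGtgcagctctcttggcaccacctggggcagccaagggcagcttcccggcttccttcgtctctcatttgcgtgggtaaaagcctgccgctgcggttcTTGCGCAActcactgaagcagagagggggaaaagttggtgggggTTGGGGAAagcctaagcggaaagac
Ptgs1: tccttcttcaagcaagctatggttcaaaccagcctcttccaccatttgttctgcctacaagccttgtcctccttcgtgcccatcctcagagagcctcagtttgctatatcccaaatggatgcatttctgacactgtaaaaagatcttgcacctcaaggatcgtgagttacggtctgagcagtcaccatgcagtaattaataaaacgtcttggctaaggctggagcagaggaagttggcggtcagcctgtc
Ptges: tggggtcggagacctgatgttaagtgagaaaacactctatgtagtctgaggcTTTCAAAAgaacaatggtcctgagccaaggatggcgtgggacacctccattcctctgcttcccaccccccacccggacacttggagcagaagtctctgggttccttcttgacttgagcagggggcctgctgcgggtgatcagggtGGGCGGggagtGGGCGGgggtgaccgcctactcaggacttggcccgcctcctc

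The motifs were searched on both strands of the 300 bases that RefSeq windows hold (250 before and 50 after the start). They were the C/EBP motif TTNNGNAA, the GC box GGGCGG, the E-box CACGTG, the CRE core ACGTCA, the full CRE TGACGTCA, AP-1 TGANTCA and TATAAA. The window was widened to its 50 bases after the start once the 250 bases before *Ptgs2* had been seen to hold no E-box or CRE core. *Ptgs2* had C/EBP matches starting 69 and 25 bases before the start and a GC box 170 bases before it. After the start it had a CRE core at bases 13 to 18 and an E-box at bases 17 to 22, which share 2 bases. *Ptges* had 1 C/EBP match 198 bases and 2 GC boxes 53 and 42 bases before its start, and *Ptgs1* had 0 matches to any of the 7 motifs. Of 32851 windows of the same length, 40.7% held the C/EBP motif, 35.7% the GC box, 7.15% the E-box, 7.51% the CRE core, 1.79% the full CRE, 7.81% AP-1 and 13.6% TATAAA. A match is a description of letters, not of a bound site, and RefSeq windows were found for 9 of the 10 genes.

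*Ptges* encodes the inducible microsomal synthase mPGES-1, which converts the product of COX-2 to prostaglandin E2. *Ptges* (ENSMUSG00000050737, at 30889471-30929863 of chromosome 2, minus strand) had an FPKM of 204, 748 and 626 in WT_1 to WT_3, 185, 102 and 1709 in KO_1 to KO_3, and 1462, 1444 and 1554 in SHP099_1 to SHP099_3. The SHP099 libraries were close together and above every WT library, whereas KO_3 was the highest of all 9 and KO_1 and KO_2 the lowest. WT_1, at 204, was nearer to KO_1 than to the other WT libraries. The KO spread of 2.14 (SD of log2 levels, n = 3) was larger than that of 99.9% of the 11450 tested genes, against 1.02 in WT and 0.06 with SHP099, a measure chosen after the values were seen.

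*Ptges* with SHP099 differed from WT by a log2 fold change of 1.70 (SE 0.45), 283% of the WT level, and did not pass (adjusted p = 0.0651 from limma). Without WT_1 it was 1.12 and passed (adjusted p = 0.0185), and over 18 alternatives the adjusted p was between 0.0185 and 0.287. In KO limma gave -0.52 (SE 1.06, adjusted p = 0.814), with -1.73 without KO_3 (adjusted p = 0.235) and 0.30 without KO_2 (adjusted p = 0.928), in a range of 0.235 to 0.984. Between KO and SHP099 it was -2.22 (SE 0.95, adjusted p = 0.399 from limma), and without KO_3 -3.43 (adjusted p = 0.00135), which passed, in a range of 0.00135 to 0.803. The KO value was also -1.10 without WT_1, -0.13 without KO_1, -0.16 without WT_2 and -0.29 without WT_3, so every library moves it. KO_3, the highest for *Ptges*, also had the highest mesothelial and fibroblast markers, whose part in the result was not tested.

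**Figure D2:**
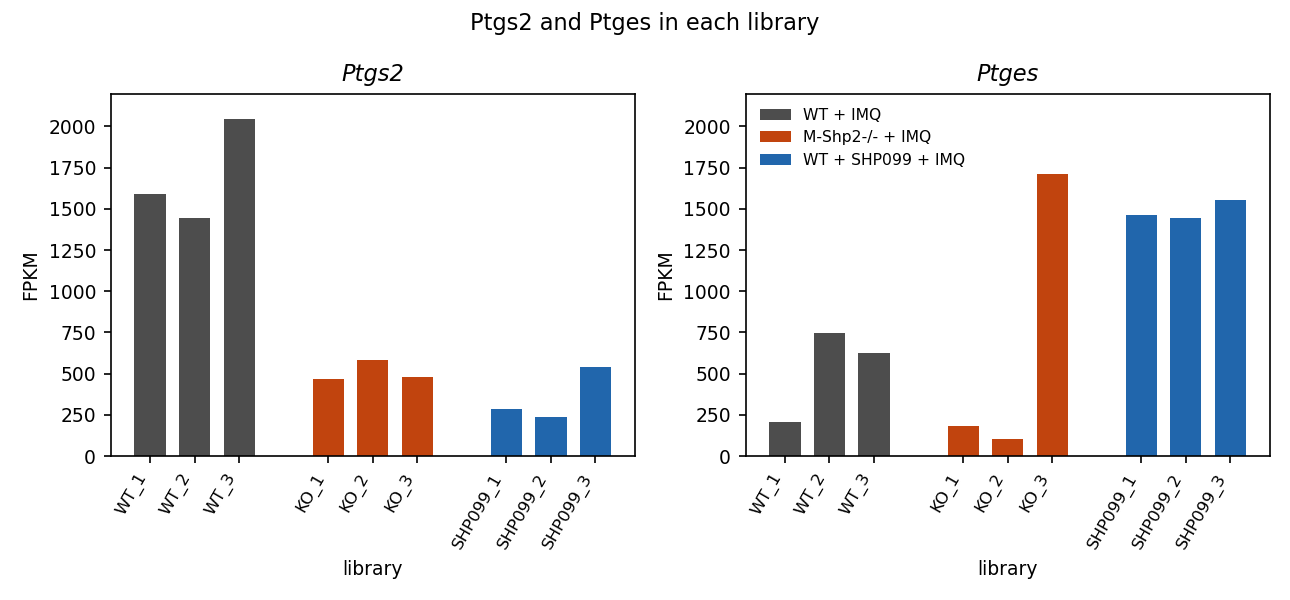
FPKM of *Ptgs2* (left) and *Ptges* (right) in each library, on linear axes from 0, with 1 bar per library coloured by group. The WT bars of *Ptgs2* stand between 1442 and 2047 FPKM, above all others, and *Ptges* stands between 1444 and 1554 FPKM with SHP099 and at 1709 FPKM in KO_3, against 102 and 185 FPKM in the other KO libraries.

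The level of *Ptgs2* relative to *Ptges*, the enzymes of successive steps, changed places between groups, as ratios computed after the values were seen. The FPKM of *Ptgs2* was 7.81, 1.93 and 3.27 times that of *Ptges* in WT, 2.54, 5.71 and 0.280 times in KO, and 0.197, 0.164 and 0.348 times with SHP099. COX-2 transcripts outnumbered those of mPGES-1 per length in all WT libraries and in KO_1 and KO_2, and the reverse held in KO_3 and all SHP099 libraries.

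*Ptges2* and *Ptges3* encode the other prostaglandin E synthases, a membrane-associated enzyme and a cytosolic one that is also the HSP90 co-chaperone p23. Over the 9 libraries, *Ptges2* lay between 8.70 and 12.4 FPKM and *Ptges3* between 57.6 and 89.7 FPKM, narrow ranges beside that of *Ptges*. *Ptges* made up 52.0% (KO_2) to 94.8% (KO_3) of the FPKM of the 3 synthases, also computed after the values were seen. Log2 fold changes of *Ptges2* were 0.13 in KO (-0.01 with median-of-ratios scaling, -0.03 with quantile normalization) and 0.17 with SHP099. Those of *Ptges3* were 0.24 in KO (0.08 with median-of-ratios scaling or without WT_3) and 0.10 with SHP099 (-0.05 with median-of-ratios scaling), and adjusted p values for both genes ran from 0.432 to 0.701 by limma. The 3 KO libraries of *Ptges3*, at 89.7, 84.0 and 82.5 FPKM, lay above the SHP099 libraries at 76.5, 76.9 and 78.4 FPKM. This difference was small (log2 fold change 0.14, adjusted p = 0.436).

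*Ptger2* and *Ptger4* encode EP2 and EP4, the receptors for prostaglandin E2 that raise cyclic AMP. *Ptger2* had an FPKM of 1.31, 2.88 and 0.898 in WT, 2.46, 1.87 and 2.73 in KO, and 2.34, 1.59 and 1.53 with SHP099. *Ptger4* had 2.44, 1.97 and 1.84 in WT, 3.20, 3.23 and 1.93 in KO, and 2.09, 1.83 and 1.98 with SHP099. Both were low, their groups overlapped, and KO_3 was the highest KO library for *Ptger2* and the lowest for *Ptger4*. Log2 fold changes against WT were 0.37 and 0.12 (0.00 with quantile normalization) for *Ptger2* and 0.28 and -0.05 for *Ptger4*, in KO and with SHP099, with adjusted p values from 0.547 to 0.853 by limma. The KO value of *Ptger4* was 0.17 with median-of-ratios scaling, 0.07 with quantile normalization and 0.46 without KO_3. For *Ptger2* the KO value was 0.16 without WT_3 and 0.67 without WT_2, and the SHP099 value ran from -0.10 without WT_3 to 0.42 without WT_2. Between KO and SHP099 *Ptger4* differed by 0.33 by limma (adjusted p = 0.478), which passed without KO_3 (0.51, adjusted p = 0.0402, in a range over alternatives of 0.0402 to 0.865). The log2 ratio of *Ptger4* to *Ptger2*, with 1 added to each FPKM, which is close to the levels themselves, averaged 0.26 ± 0.56 in WT, 0.16 ± 0.46 in KO and 0.08 ± 0.18 with SHP099 (SD, n = 3 each). The exact permutation test of that ratio gave two-sided p = 0.800 in KO and 0.600 with SHP099.

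Exons of some members overlap genes on the opposite strand in GENCODE M21, and the counting strand is not stated. For *Ptger4*, 1015 exon bases are shared with the pseudogene *Gm15937* and 82 with *Ttc33*. For *Ptger2*, 246 are shared with *Gm17173* and 144 with *Gm49364*. *Alox5ap* shares 189 with *Gm19719* and *Ptgs1* shares 148 with *Gm43621*. *Ptgs2* and *Ptges* share 0 exon bases with another gene.

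*Alox5* encodes 5-lipoxygenase and *Alox5ap* its activating protein FLAP, and together they start leukotriene synthesis. *Alox5ap* was well expressed, between 46.6 and 66.5 FPKM over the 9 libraries, with log2 fold changes of 0.14 in KO and 0.08 with SHP099 (adjusted p = 0.625 and 0.741 from limma), which median-of-ratios scaling turned to -0.02 and -0.06. *Alox5* was at 0.319, 0.489 and 0.373 FPKM in WT, 0.656, 0.509 and 0.298 in KO, and 0.632, 0.256 and 0.245 with SHP099, on 18 to 50 reads per library. These values are above the floor of 3 reads, which is 0.0333 to 0.0426 FPKM for this gene and covers counting error only, but below the minimum for a test. Transcripts of the activating protein were thus far above those of its enzyme in every library. The log2 ratio of *Alox5ap* to *Alox5*, with 1 added to each FPKM, averaged 5.33 ± 0.25 in WT, 5.38 ± 0.11 in KO and 5.44 ± 0.34 with SHP099 (SD, n = 3 each). The exact permutation test gave two-sided p = 0.800 for either comparison with WT. The added 1 is above the level of *Alox5* in every library, so this ratio understates the distance between the genes and damps differences in *Alox5*.

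In the comparison of KO with WT, 1 of the 9 tested members passed an adjusted p of 0.05 in limma, *Ptgs2*, which was lower, and 0 were higher. Among all 11450 genes, 0.0873% passed, 0.0873% lower and 0% higher. The study's methods set thresholds of an adjusted p of 0.005 and a log2 fold change of 1 in either direction. At these thresholds limma called 0 of 9 members and 0.00873% of all genes. The study used them with DESeq on read counts, which was not run here, so limma's counts do not show what the study called. The paper also measured *Ptgs2* by quantitative PCR after IMQ, and reports less of it with the deletion and with SHP099. Separate ranges of KO and WT libraries were seen for 1 member that was lower (3.07% of all genes) and for 0 that were higher (16.0% of all genes). At an unadjusted p under 0.05 there was 1 member, *Ptgs2* itself, beside 1204 of the 11450 genes. With any of the 6 libraries left out, 0 members passed. Log2 fold changes were above 0 for 6 of 9 members and 77.4% of all genes. Their median was 0.14, against 0.15 over all genes, and 0.15 moved to 0.01 with median-of-ratios scaling.

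In the comparison of SHP099 with WT, *Ptgs2* was again the 1 of 9 members that passed, and it was lower. Over all genes, 6.96% passed, 2.41% lower and 4.55% higher, so passing was more frequent in general than in KO. The split by direction depends on scaling: 521 genes were higher and 276 lower, against 200 and 375 with median-of-ratios scaling and 344 and 356 with quantile normalization. At the study's thresholds limma called 0 of 9 members and 0.166% of all genes. Separate ranges were seen for *Ptgs2*, lower (6.77% of all genes), and for *Ptges*, higher (27.9% of all genes). These 2 members had an unadjusted p under 0.05, as had 3061 of the 11450 genes. Log2 fold changes of the members spread on both sides of 0. They were above 0 for 6 of 9 members and 71.2% of all genes, with a median of 0.08 against 0.13 over all genes, which moved to 0.00 with median-of-ratios scaling. Of the 9, 0 passed without SHP099_1 or without SHP099_2, and 2 passed without WT_1, *Ptgs2* and *Ptges*. Over all genes, 21 then passed higher and 69 lower without SHP099_1, 10 and 37 without SHP099_2, and 133 and 151 without WT_1, fewer than with all libraries. Without SHP099_3 they were 42 and 74, without WT_2 226 and 173, and without WT_3 more, 807 and 466.

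Whether deletion and inhibition differed was tested between KO and SHP099 libraries directly. Of the 9 members 0 passed in limma, where 0.0699% of all genes passed. At an unadjusted p under 0.05 there were 0 members and 1437 of the 11450 genes. At the study's thresholds there were 0 members and 0% of all genes. *Ptges3* was the 1 member with KO libraries all higher (7.90% of all genes), and 0 had KO libraries all lower (9.76% of all genes). Without KO_3, 2 of 9 passed, *Ptges* lower and *Ptger4* higher, and *Ptges* also met the study's thresholds, as did 104 genes that were higher and 55 that were lower among all 11450. The share over all genes then rose from 0.0699% to 19.9%, with 7.89% lower and 12.0% higher, so the members' count without KO_3 is read beside a much larger background. With all libraries, log2 fold changes were above 0 for 6 of 9 members and 53.2% of all genes, with a median of 0.14 against 0.02.

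The wider pathway was described with a list of 67 genes in 8 roles, of which 31 were tested and 7 were at 0 FPKM in every library (*Pla2g4d*, *Pla2g4e*, *Ptgds*, *Ptgdr*, *Oxgr1*, *Alox12b* and *Alox12e*). In KO, 1 of 31 passed in limma (*Ptgs2*, lower), beside 0.0873% of all genes, 6 had an unadjusted p under 0.05 (1204 of all 11450 genes), and the median log2 fold change was 0.18, against 0.15 over all genes. With SHP099, 3 of 31 passed, *Ptgs2* lower and *Ptgir* and *Pla2g12a* higher, beside 6.96% of all genes, with 11 at an unadjusted p under 0.05 (3061 of all 11450 genes) and a median of 0.12, against 0.13. Between KO and SHP099 0 of 31 passed, beside 0.0699% of all genes, with 2 at an unadjusted p under 0.05 (1437 of all 11450 genes) and a median of 0.04, against 0.02. Without KO_3 the last count was 7 of 31, beside 19.9% of all genes, so that the rise is shared with the tested genes at large. Leaving out SHP099_1 or SHP099_2 took the SHP099 count to 0. Leaving out any library took the KO count to 0.

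By role, pathway genes are described by counts and medians, and no role was tested as a group. In KO and with SHP099 the median log2 fold change was -0.54 and -1.16 for the cyclooxygenases (2 of 2 tested), where *Ptgs2* and *Ptgs1* lay far apart. The median log2 fold change was 0.17 and 0.07 for phospholipases (6 of 17 tested), 0.30 and 0.27 for terminal synthases (8 of 9 tested), and 0.32 and 0.41 for export, uptake and breakdown (4 of 6 tested). Above 0 in KO and with SHP099 were 5 and 4 of 6 phospholipases, 1 and 1 of 2 cyclooxygenases, 7 and 7 of 8 terminal synthases, 4 and 3 of 4 genes of export, uptake and breakdown, 3 and 2 of 3 prostanoid receptors, 5 and 5 of 7 genes of leukotriene synthesis, and 0 and 1 of 1 leukotriene receptor. Over all genes, 77.4% and 71.2% were above 0. The median was 0.37 and 0.12 for prostanoid receptors (3 of 9 tested), 0.07 and 0.11 for leukotriene synthesis (7 of 12 tested), and -0.21 and 0.07 for the 1 of 5 leukotriene receptors that was tested. Outside the 10 members, 22 of 57 genes were tested, with medians of 0.22 and 0.17.

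*Ptgir* encodes the receptor for prostacyclin and was the most abundant prostanoid receptor. Its FPKM was 29.8, 29.2 and 27.1 in WT, 44.2, 47.9 and 48.3 in KO, and 58.2, 49.3 and 44.2 with SHP099. All libraries of both other groups were above the WT libraries, as for 16.0% of all tested genes in KO and 27.9% with SHP099. It rose with SHP099 (log2 fold change 0.79, SE 0.11, adjusted p = 0.0177 from limma), and the call ended without SHP099_1 (adjusted p = 0.0609) and without SHP099_2 (0.102), in a range over alternatives of 0.0102 to 0.121. In KO the log2 fold change was 0.69 (SE 0.09) and did not pass (adjusted p = 0.116).

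*Pla2g12a* encodes a secreted phospholipase A2. Its FPKM was 7.57, 8.68 and 6.77 in WT, 10.6, 10.8 and 11.3 in KO, and 13.6, 12.0 and 12.6 with SHP099. The groups followed each other without overlap, WT lowest and SHP099 highest. Of all tested genes, 16.0% had KO wholly above WT, 27.9% had SHP099 wholly above WT and 9.76% had KO wholly below SHP099. It rose with SHP099 (log2 fold change 0.67, SE 0.12, adjusted p = 0.0270 from limma). The call ended without SHP099_1, SHP099_2, SHP099_3 and WT_1 (adjusted p = 0.122, 0.126, 0.0864 and 0.0708), in a range over alternatives of 0.0150 to 0.163. In KO limma gave 0.46 (SE 0.13, adjusted p = 0.452).

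**Figure D3:**
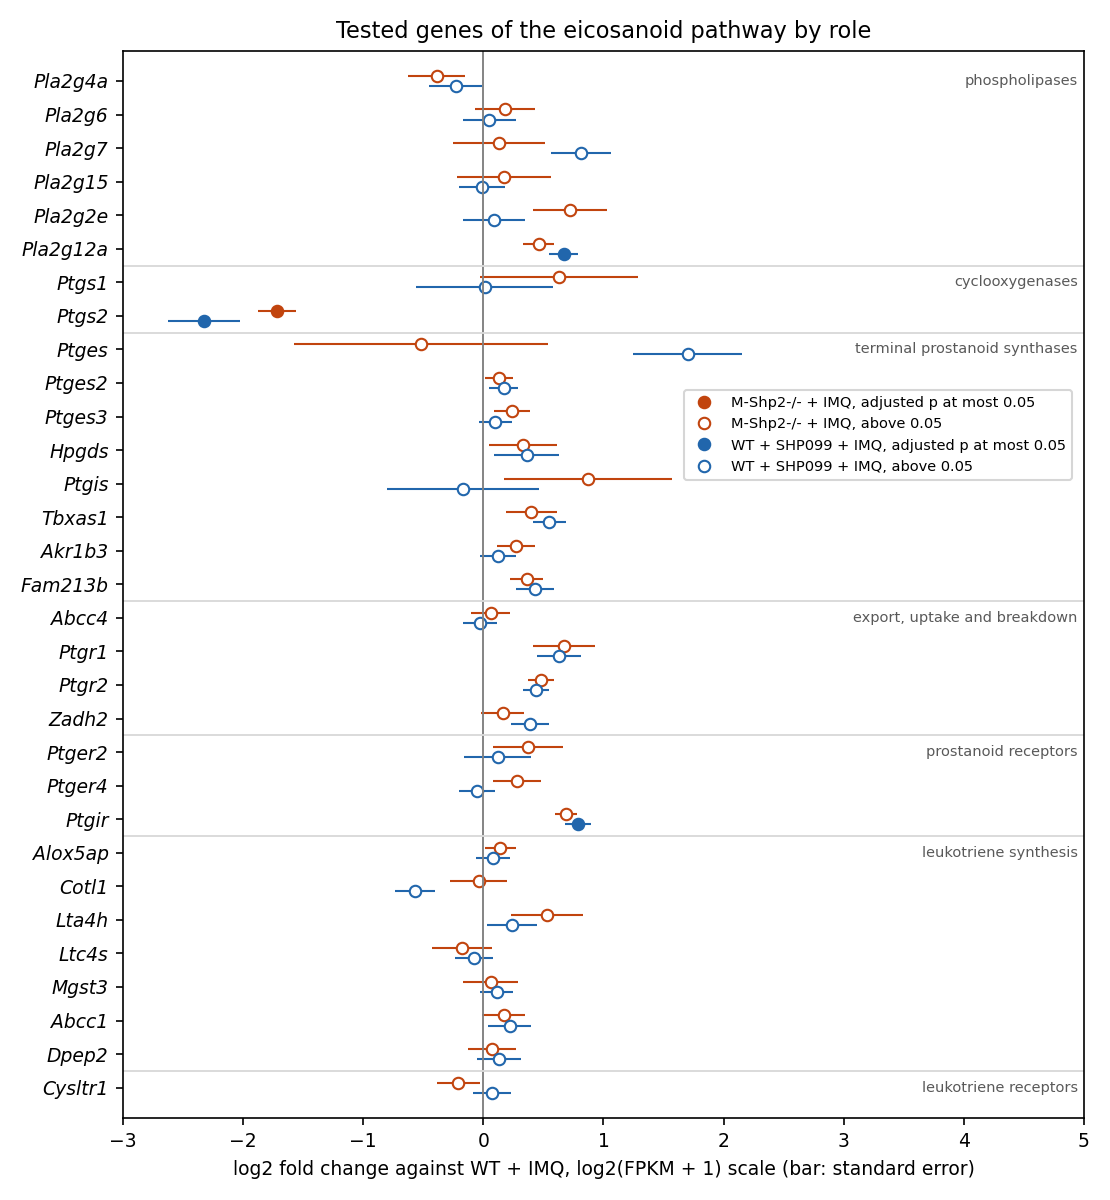
Log2 fold changes against WT (horizontal axis, on log2 of FPKM + 1) of the 31 tested pathway genes, grouped by role, for KO (red) and SHP099 (blue), with bars for the standard error and filled points for an adjusted p of at most 0.05. *Ptgs2* lies at -1.72 and -2.33, apart from the other genes, and *Ptgir* and *Pla2g12a* have filled points at 0.79 and 0.67 for SHP099. Both sets of values share the WT libraries.

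Among the most abundant genes of their roles, *Pla2g7*, *Cotl1*, *Ptgr1* and *Cysltr1* did not pass in either comparison with WT. *Pla2g7*, a phospholipase that breaks down platelet-activating factor, had log2 fold changes of 0.13 in KO (-0.25 without KO_3, -0.15 without WT_1) and 0.81 with SHP099 (0.53 without WT_1), with adjusted p = 0.868 and 0.0932 from limma. *Cotl1*, an actin-binding protein that also binds 5-lipoxygenase, had -0.04 and -0.57 (adjusted p = 0.934 and 0.0862). Its KO value turned to 0.17 without KO_3 and 0.12 without WT_1, and with SHP099 it passed without WT_3 (-0.76, adjusted p = 0.0147, in a range with libraries left out of 0.0147 to 0.316 from limma). *Ptgr1*, a reductase that inactivates prostaglandins and leukotriene B4, had 0.67 and 0.63 (adjusted p = 0.465 and 0.0821 from limma). Its KO value was 0.44 without KO_3 and 0.85 without KO_2. For the leukotriene receptors and the other lipoxygenases the most abundant genes were near the limit of the test: *Cysltr1*, a receptor for cysteinyl leukotrienes, at a mean of 1.10 FPKM, and *Alox15* at 0.610 FPKM, which was not tested, like all 7 genes of its role. The enzymes that follow 5-lipoxygenase were present, with *Lta4h*, the leukotriene A4 hydrolase, at 21.7 to 55.7 FPKM and *Ltc4s*, the leukotriene C4 synthase, at 0.800 to 2.09 FPKM, both named after their values were seen.

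Among the genes whose pattern over the 9 libraries was most like that of *Ptgs2* were *Il6*, *Srgn*, *Gm6377* and *Socs3*, with Pearson correlations of log2 levels between 0.968 and 0.993. Since the groups differ in *Ptgs2*, such values hold the difference between groups. For deviations from the group means, r was 0.93, 0.80, 0.73 and 0.71 in the same order. *Il6*, an inflammatory cytokine, stood at 18.3 FPKM in SHP099_2 and 58.4 FPKM in SHP099_3, the libraries in which *Ptgs2* was lowest and highest of that group. The correlations describe 9 libraries and say nothing about shared control.

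On chromosome 1, *Ptgs2* lies between other genes that were examined after its values were seen. *Ptgs2os*, a noncoding gene on the opposite strand, starts 67 bases from the start of *Ptgs2* and runs away from it. Its FPKM was 0.229, 0.349 and 0.488 in WT, 0.118, 0.216 and 0.167 in KO, and 0.270, 0.160 and 0.232 with SHP099. These values were too low for a test. *Ptgs2os2*, 50.8 kb on the other side, had 6.32, 8.48 and 8.30 FPKM in WT, 4.72, 4.36 and 3.66 in KO, and 2.10, 2.24 and 3.35 with SHP099. All its WT libraries were above the others, where 3.07% of all tested genes had KO wholly below WT and 6.77% had SHP099 wholly below WT. It was lower with SHP099 (log2 fold change -1.29, adjusted p = 0.0161 from limma) and did not pass in KO (-0.72, adjusted p = 0.388). *Pla2g4a* itself is a neighbour, 139 kb from *Ptgs2* with 0 coding genes between.

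Some members moved with the markers of mesothelial cells and fibroblasts. Over the 9 libraries, log2 levels of *Ptgs1* correlated with the summed level of these markers at r = 0.92 (Spearman 0.90, and r = 0.82 without the 2 libraries farthest from the median). For *Ptger2* the values were 0.83, 0.77 and 0.71, and for *Ptgis*, the prostacyclin synthase, 0.86, 0.78 and 0.69. *Ptges* gave 0.60, 0.67 and 0.65, and *Ptgs2* gave -0.45, -0.63 and -0.22. These are 5 of 13 genes for which such values were computed, chosen after they were seen. *Upk3b*, a mesothelial marker, was below 1 FPKM in every library. The part of such cells in the levels of these genes was not tested. With all libraries, *Ptgs2* had log2 fold changes of -1.72 in KO and -2.33 with SHP099. With WT_2, KO_3 and SHP099_1 left out they were -1.78 and -2.33, and neither passed with 2 libraries per group (adjusted p = 0.140 and 0.0662 from limma).

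**Figure D4:**
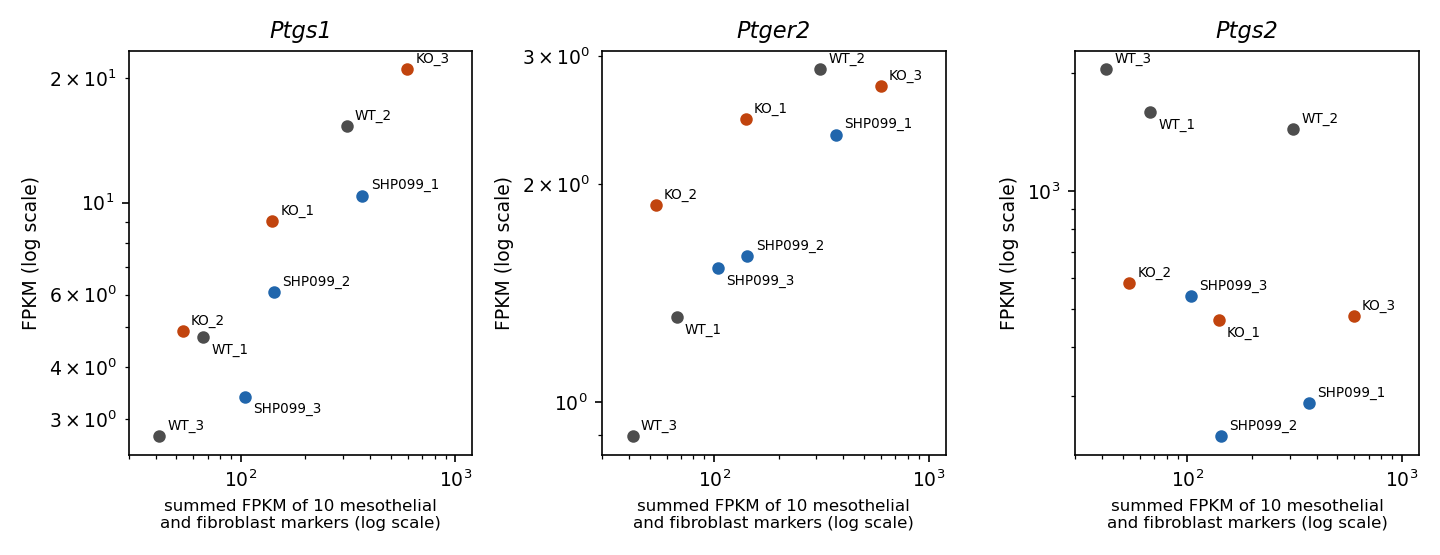
FPKM (log scale) of *Ptgs1*, *Ptger2* and *Ptgs2* against the summed FPKM of 10 mesothelial and fibroblast markers (log scale), with 1 point per library coloured and named by group. *Ptgs1* climbs from 2.73 FPKM in WT_3 to 21.0 FPKM in KO_3 as the markers go from 41.6 to 597. *Ptgs2* lies between 1442 and 2047 FPKM in WT and between 237 and 582 FPKM in the other groups. The part of such cells in these levels was not tested.

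Other cell types that can make or sense eicosanoids in the peritoneal cavity were checked with markers. Of 7 mast cell genes 1 was tested, and their summed FPKM was 6.10, 4.78 and 6.01 in WT, 2.76, 3.19 and 1.60 in KO, and 0.675, 0.564 and 0.970 with SHP099. These sums did not overlap between groups and followed the order of the *Ptgs2* means, highest in WT and lowest with SHP099. The most abundant was *Kit*, a growth factor receptor, at 4.51, 0.968 and 1.19 FPKM in WT, 1.40, 2.94 and 0.176 in KO, and 0.356, 0.286 and 0.356 with SHP099. Its SHP099 libraries were all below WT, as for 6.77% of all tested genes, and KO and WT overlapped. The distance with SHP099 depends on WT_1 (log2 fold change -1.11, adjusted p = 0.123 from limma). *Tpsb2* was at 0.896, 2.32 and 2.52 FPKM in WT, 0.686, 0.0450 and 0.649 in KO, and 0.274, 0.209 and 0.506 with SHP099. All its WT libraries were above the others, and in WT_2 and WT_3 it was above *Kit*. *Cma1* was at 0.479, 0.761 and 1.26 FPKM in WT, 0.278, 0.0225 and 0.608 in KO, and at most 0.0696 with SHP099. Both were named after their values were seen. *Fcer1a* was at 0 in every library, and *Cpa3*, *Mcpt4* and *Ms4a2* were below 1 FPKM. The part of mast cells in the level of *Ptgs2* was not tested.

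Of 7 neutrophil genes 2 were tested, *Csf3r* was the most abundant and the sum ran from 89.3 to 168, while *Retnlg*, *Ly6g*, *Mpo* and *Cxcr2* were below 1 FPKM everywhere. Of 5 eosinophil genes 0 were tested (sum 0.0186 to 0.0549 with SHP099 and 0.333 to 1.00 in the other libraries, led by *Siglecf*), as were 0 of 4 platelet genes (0.189 to 0.625, led by *Itga2b*, with *Gp1bb* at 0). The T cell, dendritic cell and endothelial lists had 0 of 6, 0 of 5 and 0 of 3 genes tested, with sums of up to 6.39, 1.83 and 1.92 FPKM, led by *Cd3g*, *Zbtb46* and *Cdh5*, and with *Emcn* at 0. The dendritic cell sums were also lowest with SHP099, at most 0.784 FPKM. Of 5 B cell genes 2 were tested, and the sum ran from 0.999 to 20.0. Genes of resident large peritoneal macrophages (7 of 8 tested, led by *Prg4*) summed to 16.6 to 58.1 FPKM, with the highest value in WT_2. The part of these cells in the results was not tested.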

How the data were processed

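RNA of 9 macrophage libraries was sequenced. The authors name HISAT2 2.0.4, HTSeq 0.9.1 and CASAVA 1.8, and deposited FPKM, with a column for each library. The tool that made FPKM, the build, the annotation and the counting strand are not stated. Other values deposited by the authors, the spans of 5251 genes, hold no measurement: 5235 genes are in GENCODE M21, 4808 with the same span. Of the 54059 genes, 53706 are in M21 (GRCm38). Groups follow the labels, and treatments follow the paper. Labels give an age of 8 weeks.

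FPKM times mean transcript length fell on whole reads (within 0.05) for 96.3% to 96.7% of values up to 50 reads, against 10% by chance, which gives the depth.

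The 11450 genes with a mean of at least 1 FPKM were compared as log2(FPKM + 1) with limma 3.58.1 (lmFit, eBayes with trend, two-sided) in R 4.3.3, on the 6 libraries of each comparison, adjusted by Benjamini-Hochberg over all genes. The procedure was tested on simulated data. Ratios were compared by exact permutation tests. Python 3.11.15, numpy 2.4.6, pandas 2.3.3, scipy 1.17.1 and matplotlib 3.10.9 were used.

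Members, lists and tests were chosen with earlier results of these data known. Named are the 10 members, *Ptpn11*, pathway genes that pass or are the most abundant of their role, the most abundant and defining markers of each list, and genes most like a member that passes against WT. The text says where a gene outside this rule was chosen after its values were seen. *Dpep2* has 2 identifiers, of which ENSMUSG00000053687 was used. Alternatives were pseudocounts of 0.1 and 5, no filter and a minimum mean of 5 FPKM, equal FPKM sums, median-of-ratios scaling, quantile normalization, voom on recovered reads, a joint fit of all 9 libraries, eBayes without trend, the replicate block and each library left out. Leaving out WT_2, KO_3 and SHP099_1 together was chosen after seeing the data.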

Additional observations from a re-analysis of the deposited data

How the results depend on the processing

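Each value was computed again under 18 alternatives (8 for ratios, and 17 for *Ptger2* and *Ptger4*, which a minimum mean of 5 FPKM left out). The count of members passing against WT went from 1 to 0 in KO with no filter, median-of-ratios scaling, eBayes without trend, all 9 libraries in one fit, and WT_2, KO_3 and SHP099_1 left out (chosen after seeing the data), and was 0 to 0 with each library left out. The pathway count in KO also went from 1 to 0 under each of these (0 to 0 with each library left out). With SHP099 the members' count went to 0 with no filter and with the 3 libraries left out, and was 0 to 2 with each library left out; the pathway count went from 3 to 0 with no filter, to 5 with a minimum mean of 5 FPKM, to 0 with the 3 libraries left out, and was 0 to 4 with each library left out. Between KO and SHP099 the 3 libraries left out gave 1 member, 1 at the study's thresholds and 6 pathway genes, where of all 11450 genes 1314 passed higher and 740 lower (136 and 66 at the study's thresholds), and each library left out 0 to 2, 0 to 1 and 0 to 7. The counts at the study's thresholds against WT were 0 under every alternative. With the replicate block, which the numbers of the libraries do not call for (same-number correlations of deviations from -0.43 to 0.49), members passing were 0 in KO, 1 with SHP099 and 0 between them, and pathway genes 0, 3 and 0; the adjusted p of *Ptgs2* in KO was 0.214 with the block.

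Some log2 fold changes turned sign. Median-of-ratios scaling gave -0.01 for *Ptges2* and -0.02 for *Alox5ap* in KO, and -0.11 for *Ptgs1*, -0.05 for *Ptges3* and -0.06 for *Alox5ap* with SHP099. Quantile normalization gave -0.03 for *Ptges2* in KO, and -0.13 for *Ptgs1* and 0.00 for *Ptger2* with SHP099. With SHP099, *Ptgs1* was -0.03 with a pseudocount of 5 and -0.01 with voom. With each library left out, ranges were -1.73 to 0.30 for *Ptges* in KO and, with SHP099, -0.45 to 0.62 for *Ptgs1*, -0.06 to 0.20 for *Ptges3*, -0.10 to 0.42 for *Ptger2*, -0.11 to 0.03 for *Ptger4* and -0.03 to 0.18 for *Alox5ap*. Between KO and SHP099 they were -0.08 to 0.05 for *Ptges2*, -0.01 to 0.15 for *Alox5ap* and -0.19 to 0.00 for *Ptgir*. The log2 ratio of *Ptgs2* to *Ptgs1* between KO and SHP099 was 0.16 with a pseudocount of 5 and -0.56 to 0.68 with each library left out. That of *Alox5ap* to *Alox5* was -0.08 in KO with a pseudocount of 0.1 and 0.02 between KO and SHP099 with a pseudocount of 5, with ranges of -0.06 to 0.19, -0.05 to 0.29 and -0.24 to 0.10 (KO, SHP099, and between them). That of *Ptger4* to *Ptger2* was -0.41 to 0.16 in KO and -0.12 to 0.33 between KO and SHP099. The cause of these changes was not tested.

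Over all alternatives, 534 log2 fold changes kept sign and call, 24 turned sign, 26 lost a call and 4 gained 1. Leaving out a library leaves 2 against 3, and a p that misses the threshold does not show that levels were equal. Depth does not limit *Ptgs2* or *Ptges*; for *Alox5*, at most 50 reads stand behind a value.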
